A study of Sus scrofa with 8 samples.

Results

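The interferon-stimulated genes and the immunoproteasome are the genes that cells switch on when interferon reaches them. A list of 43 such genes was followed in the jejunum of suckling and weaned piglets. A gene entered when a non-control probe carried a RefSeq accession that maps to its symbol, and the probe with the highest mean log2 processed signal over all arrays stood for it. This gave 29 genes with 57 probes, out of 3216 genes named on the array in the same way. The other 14 genes (DDX58, IFIT2, IFIT5, OAS1, HERC5, HERC6, CMPK2, IFI6, IFI44L, XAF1, PARP14, SAMD9, IDO1 and WARS) had no probe named in this way and were not analysed here.

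All 8 animals were Duroc × Landrace piglets sampled at 25 days of age. In the suckling group, 4 piglets had stayed with the sow. In the weaned group, 4 piglets had been moved at 21 days of age to nursery pens with free access to a basal diet and water, and were sampled 4 days later. Each 1-colour array held the RNA of a 2 cm piece of the middle jejunum of 1 piglet. The animals came from 4 litters, with 1 piglet per litter and group, and which litter a numbered piglet came from is not given in the labels.

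Interferons are released by cells that sense viral nucleic acid or are made by activated lymphocytes. Type I and type III interferons bind receptors that work through the kinases JAK1 and TYK2 and lead STAT2 and IRF9 to the nucleus, where they turn on antiviral genes. Interferon gamma, a product of T and NK cells, induces IRF1 and is a strong inducer of guanylate-binding proteins, of the immunoproteasome and of the chemokines CXCL9, CXCL10 and CXCL11. In the intestine, both the epithelium and the immune cells beneath it respond to interferon.

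The labelled tissue was checked against epithelial markers: 6 of 12 had a probe, among them FABP1, FABP2, ANPEP and EPCAM, and all 6 were well above background on all 8 arrays. Suckling replicate 1 stood apart from its group over the whole array, with a 75th percentile of processed intensity of 245 against 316.75 to 395 on the other 7 arrays, and with a median deviation of its epithelial markers of -0.75 on the log2 scale. The markers did not all go the same way, since KRT8 was highest of the suckling group in that piglet. The suckling arrays shared 1 slide and 1 scan and the weaned arrays another, so an effect of the slide and one of weaning cannot be told apart. A sample of jejunal wall mixes cell types, so a change in the number of cells of a type and a change in RNA per cell cannot be told apart either.

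Values below are log2 processed intensities minus the 75th percentile of the array, so 0 marks that percentile, and they are listed in the order of replicates 1, 2, 3 and 4. Differences are weaned minus suckling on the same log2 scale. They come from limma, fitted over all 30554 tested probes with Benjamini-Hochberg adjustment over all of them. All 29 genes were well above background on all 8 arrays, were tested, and are counted below.

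None of the 29 genes passed an adjusted p of 0.05 in limma, where 0.177% of all tested probes did in either direction. The means of 27 genes were higher in weaned piglets, against 54.9% of all tested probes. The median difference of the 29 genes was 0.90, against 0.04 over all tested probes, and single differences ran from -0.68 for UBD to 2.61 for OASL. At an unadjusted p under 0.05, 6 genes were higher in weaned piglets and none was lower, where 7.75% and 4.58% of all tested probes were. Without suckling replicate 1 the number at an unadjusted p under 0.05 in either direction was 15, where 22.5% of all tested probes passed, against 12.3% with all 8 arrays. Without suckling replicate 3 it was also 15, where 9.67% of all tested probes passed. Without suckling replicate 2 it was 5, and without suckling replicate 4 it was 8, where 9.88% and 10.6% passed. Without weaned replicates 1, 2, 3 or 4 it was 5, 5, 5 and 6, where 8.25%, 8.85%, 12.7% and 9.76% passed. Without suckling replicate 2 the median difference was 0.50.

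**Figure D1:**
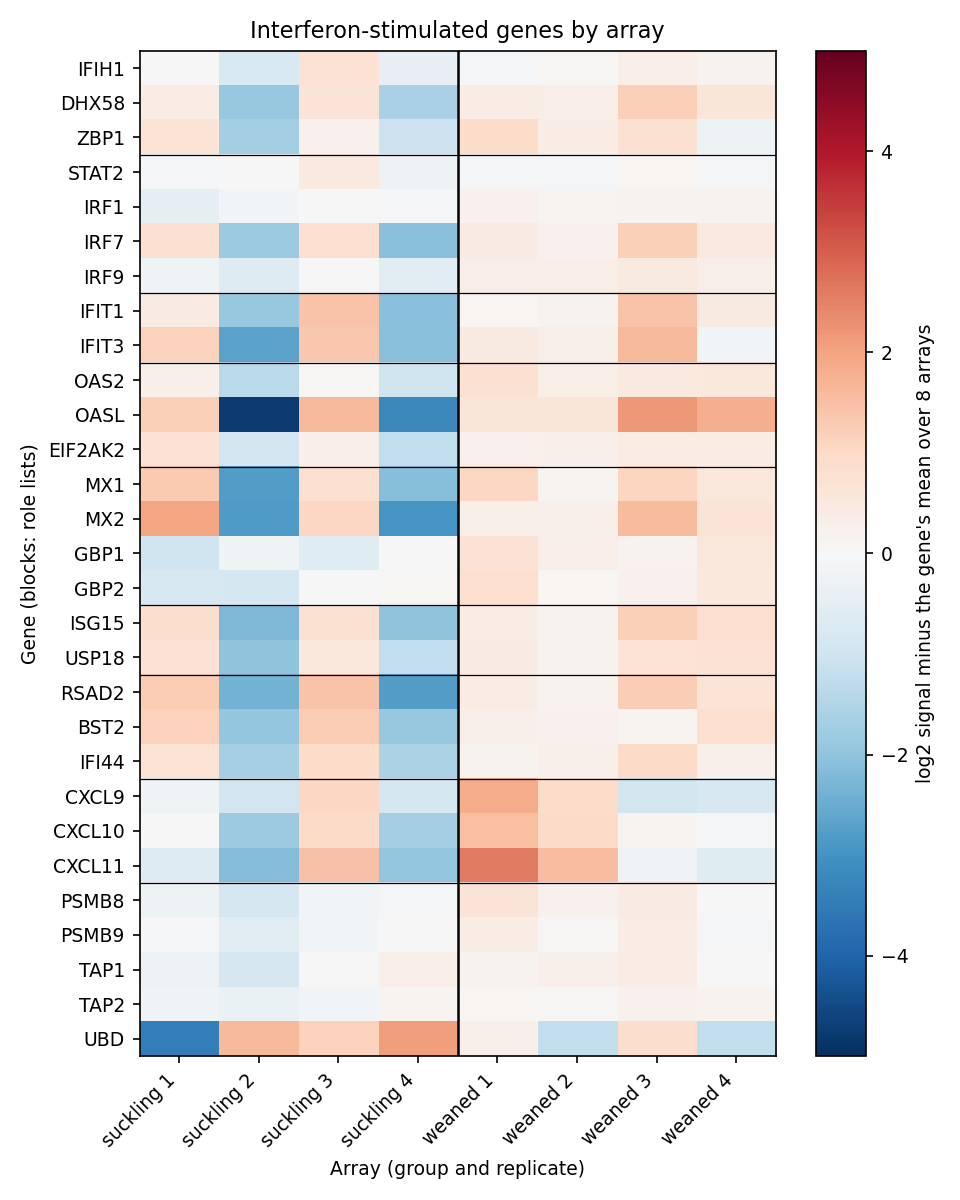
Each row is 1 of the 29 genes in blocks by role, each column 1 piglet, and colour gives the log2 signal minus the mean of that gene over the 8 arrays. Suckling replicates 2 and 4 are blue in the rows of the antiviral genes, suckling replicates 1 and 3 resemble the weaned piglets there, and the rows of CXCL9, the guanylate-binding proteins, the immunoproteasome and UBD do not have suckling replicates 2 and 4 as the 2 lowest arrays.

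In the antiviral effectors the range over the suckling piglets was larger than the difference between the group means. That difference exceeded the suckling range in only 8.23% of all tested probes, so this is not read as a trait of the effectors. ISG15 (NM_001128469), a ubiquitin-like protein that is attached to other proteins in infected cells, measured 8.74, 5.62, 8.62 and 5.87 in the suckling piglets and 8.25, 8.05, 9.04 and 8.72 in the weaned piglets. Suckling replicates 1 and 3 lay among the weaned piglets, and suckling replicates 2 and 4 lay below all other arrays. The suckling values spanned 8.7-fold and the weaned values 1.98-fold, and the difference between the group means was 1.30 (SE 0.73, limma adjusted p = 0.507). USP18, the protease that removes ISG15 and also restrains the type I interferon receptor, showed the same order, with 5.99, 3.24, 5.77 and 4.02 in suckling and 5.67, 5.42, 5.92 and 5.98 in weaned piglets. Its lowest arrays were again suckling replicates 2 and 4, and its difference was 0.99 (SE 0.57, limma adjusted p = 0.521).

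The IFIT proteins bind foreign RNA and block its translation. IFIT1 stood at 4.46, 2.16, 5.49 and 1.99 in suckling and at 4.18, 4.25, 5.48 and 4.53 in weaned piglets. The highest suckling value, in replicate 3, and the highest weaned value, also in replicate 3, were alike, while suckling replicates 2 and 4 were more than 2 log2 units below every other array. IFIT3 followed with 4.39, 0.57, 4.59 and 1.14 in suckling and 3.68, 3.53, 4.83 and 3.09 in weaned piglets. For this gene suckling replicate 2 was the lowest, and suckling replicates 1 and 3 were above 3 of the 4 weaned piglets. The differences of IFIT1 and IFIT3 were 1.09 and 1.11 (SE 0.76 and 0.92, limma adjusted p = 0.594 and 0.661).

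The proteins that act on or respond to double-stranded RNA held both the widest spread and a separated gene. OASL, an oligoadenylate synthetase-like protein that boosts RNA sensing, measured 5.81, -0.20, 6.21 and 1.36 in suckling and 5.21, 5.20, 6.77 and 6.43 in weaned piglets. Its suckling values spanned 84.7-fold, the widest span of the 29 genes, against 2.96-fold in the weaned group. Its difference of 2.61 was also the largest of the 29, with an SE of 1.35 (limma adjusted p = 0.475). OAS2 (NM_001031796), which makes the oligoadenylates that activate RNase L, measured 6.51, 4.92, 6.33 and 5.26 in suckling and 7.04, 6.57, 6.76 and 6.81 in weaned piglets. The groups did not overlap, with the highest suckling and the lowest weaned array at 6.51 and 6.57; the difference was 1.04 (SE 0.35, limma adjusted p = 0.297), and all 5 OAS2 probes were higher in weaned piglets. EIF2AK2, the kinase PKR that halts translation, measured 3.29, 1.58, 2.79 and 1.33 in suckling piglets and 2.78, 2.81, 2.91 and 2.93 in weaned piglets. The weaned piglets differed by 1.11-fold among themselves and the suckling piglets by 3.9-fold.

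MX1 and MX2 are dynamin-like GTPases that trap viral components. MX1 measured 7.98, 3.88, 7.50 and 4.56 in suckling and 7.73, 6.82, 7.75 and 7.26 in weaned piglets, and its highest array was suckling replicate 1. MX2 measured 4.28, -0.53, 3.37 and -0.63 in suckling and 2.63, 2.57, 3.91 and 2.95 in weaned piglets. Here too suckling replicate 1 was the highest of all 8 arrays, and suckling replicates 2 and 4 were more than 3 log2 units below every other array. The differences were 1.41 for MX1 and 1.39 for MX2 (SE 0.87 and 1.08, limma adjusted p = 0.55 and 0.639), and all 5 MX1 probes were higher in weaned piglets.

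RSAD2, or viperin, which makes a chain-terminating nucleotide, measured 4.40, 0.77, 4.58 and 0.34 in suckling piglets and 3.53, 3.32, 4.36 and 3.84 in weaned piglets. Its suckling range was 18.9-fold, and suckling replicates 1 and 3 exceeded all 4 weaned piglets. BST2, or tetherin, which holds budding virus at the cell surface, measured 3.47, 0.38, 3.58 and 0.42 in suckling and 2.58, 2.55, 2.48 and 3.16 in weaned piglets. Suckling replicates 1 and 3 again exceeded all weaned piglets, and the mean difference of 0.73 (SE 0.76, limma adjusted p = 0.735) came with the top of the suckling group above the weaned group. IFI44, an interferon-induced cytoplasmic protein, measured -0.036, -2.40, 0.17 and -2.33 in suckling and -0.57, -0.48, 0.24 and -0.48 in weaned piglets. Its difference was 0.82 (SE 0.61, limma adjusted p = 0.614), and that of RSAD2 was 1.24 (SE 0.96, limma adjusted p = 0.636).

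The size of several of these differences changed when single suckling piglets were left out. Leaving out 1 array moved the difference by over 1.5 times in 20 of the 29 genes. The other 9 were CXCL10, GBP1, GBP2, IRF1, IRF9, OAS2, PSMB8, PSMB9 and TAP2. The differences of CXCL9 and CXCL11 were lowest without weaned replicate 1. A small difference, such as -0.057 for STAT2, passes this mark easily. The share of all tested probes that moved as much was not computed, so the count is not read as a trait of these genes. The BST2 difference ran from 0.20 without suckling replicate 2 to 1.27 without suckling replicate 3, and that of IFIT3 from 0.41 to 1.75 without the same piglets. The RSAD2 difference ran from 0.51 without suckling replicate 4 to 1.92 without suckling replicate 3, and that of MX2 from 0.64 without suckling replicate 4 to 2.28 without suckling replicate 1. The ISG15 difference was 0.77 without suckling replicate 2 and 1.81 without suckling replicate 1, that of MX1 0.71 and 2.08 without the same piglets, and that of OASL 1.45 without suckling replicate 2 and 3.58 without suckling replicate 3. The differences of BST2, IFIT3, RSAD2, MX2, ISG15, MX1 and OASL stayed above 0 in every such run. Each run kept at least 1 of suckling replicates 2 and 4, the 2 lowest arrays for these genes. The runs therefore cannot show the direction without both of these piglets, which was not computed.

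Among the sensors, DHX58, or LGP2, a helicase that tunes the RNA sensors of the cytoplasm, measured 2.75, 0.50, 3.04 and 0.75 in suckling and 2.75, 2.73, 3.57 and 2.99 in weaned piglets. The weaned piglets lay within 1.79-fold of each other, and the suckling piglets within 5.82-fold. ZBP1, a sensor of Z-form nucleic acid, measured -0.91, -3.29, -1.42 and -2.65 in suckling and -0.69, -1.23, -0.85 and -1.86 in weaned piglets. IFIH1, or MDA5, which recognises long double-stranded RNA, measured 2.61, 1.88, 3.34 and 2.19 in suckling and 2.51, 2.68, 2.97 and 2.78 in weaned piglets. All 3 sensors had their 2 lowest values in suckling replicates 2 and 4. Their differences were 1.25, 0.91 and 0.23, in this order (SE 0.57, 0.51 and 0.29; limma adjusted p = 0.425, 0.508 and 0.791).

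The transcription factors of the pathway differed in their order of piglets. IRF7, which amplifies the production of type I interferon and is itself interferon-induced, measured 4.82, 2.16, 4.85 and 1.93 in suckling and 4.42, 4.22, 5.23 and 4.50 in weaned piglets. It had the same order of piglets as the effectors, with a difference of 1.15 (SE 0.69, limma adjusted p = 0.541). IRF9 (NM_001078670), the DNA-binding partner of STAT2, measured 2.49, 2.08, 2.72 and 2.18 in suckling and 3.06, 3.03, 3.15 and 2.99 in weaned piglets. No suckling piglet reached any weaned piglet, the difference was 0.69 (SE 0.17, 95% interval 0.30 to 1.08), and its limma adjusted p of 0.194 was the smallest of the 29 genes. The difference between the means exceeded the suckling range for IRF9, 1 of the 29 genes, and for 8.23% of all tested probes.

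IRF1 (NM_001097413), a factor strongly induced by interferon gamma, measured 2.97, 3.34, 3.50 and 3.40 in suckling and 3.68, 3.61, 3.65 and 3.65 in weaned piglets. The groups did not overlap, and the 4 weaned piglets lay within 1.05-fold of each other. The lowest suckling value was that of replicate 1, not of replicates 2 or 4, and the difference was 0.35 (SE 0.15, limma adjusted p = 0.402). STAT2 had similar means, 3.16 ± 0.32 in suckling and 3.11 ± 0.083 in weaned piglets (SD, n = 4 per group), with a 95% interval of the difference of -0.46 to 0.35. Its 5 probes disagreed in direction, with differences from -0.057 to 0.70, and the brightest was the 1 probe below 0. With the mean over its probes the STAT2 difference was 0.36.

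The guanylate-binding proteins, GTPases that attack intracellular pathogens and their vacuoles, had groups that did not overlap. GBP1 (NM_001128473) measured 3.31, 4.10, 3.73 and 4.36 in suckling and 5.04, 4.66, 4.51 and 4.88 in weaned piglets. All weaned piglets were above all suckling piglets, and suckling replicates 2 and 4 were the higher ones of their group, the reverse of their place in the effector genes. The difference was 0.90 (SE 0.24, 95% interval 0.35 to 1.44, limma adjusted p = 0.218), and all 3 probes were higher in weaned piglets. GBP2 had means of 2.88 ± 0.51 and 3.70 ± 0.33 (SD, n = 4 per group) and had groups that did not overlap either, though suckling replicate 4 and weaned replicate 2 were nearly equal. Its difference was 0.83 (SE 0.28, limma adjusted p = 0.295).

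In all, 6 of the 29 genes (IRF1, IRF9, OAS2, GBP1, GBP2 and PSMB8) had groups that did not overlap, all 6 higher in weaned piglets, against 4.93% of all tested probes higher in weaned and 2.83% lower. These are the same 6 genes that had an unadjusted limma p under 0.05. With the mean over probes, with quantile or median scaling, or with the deposited log2 values, 5 of the 6 still had separate groups, and under normexp background correction GBP1 and GBP2 did.

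**Figure D2:**
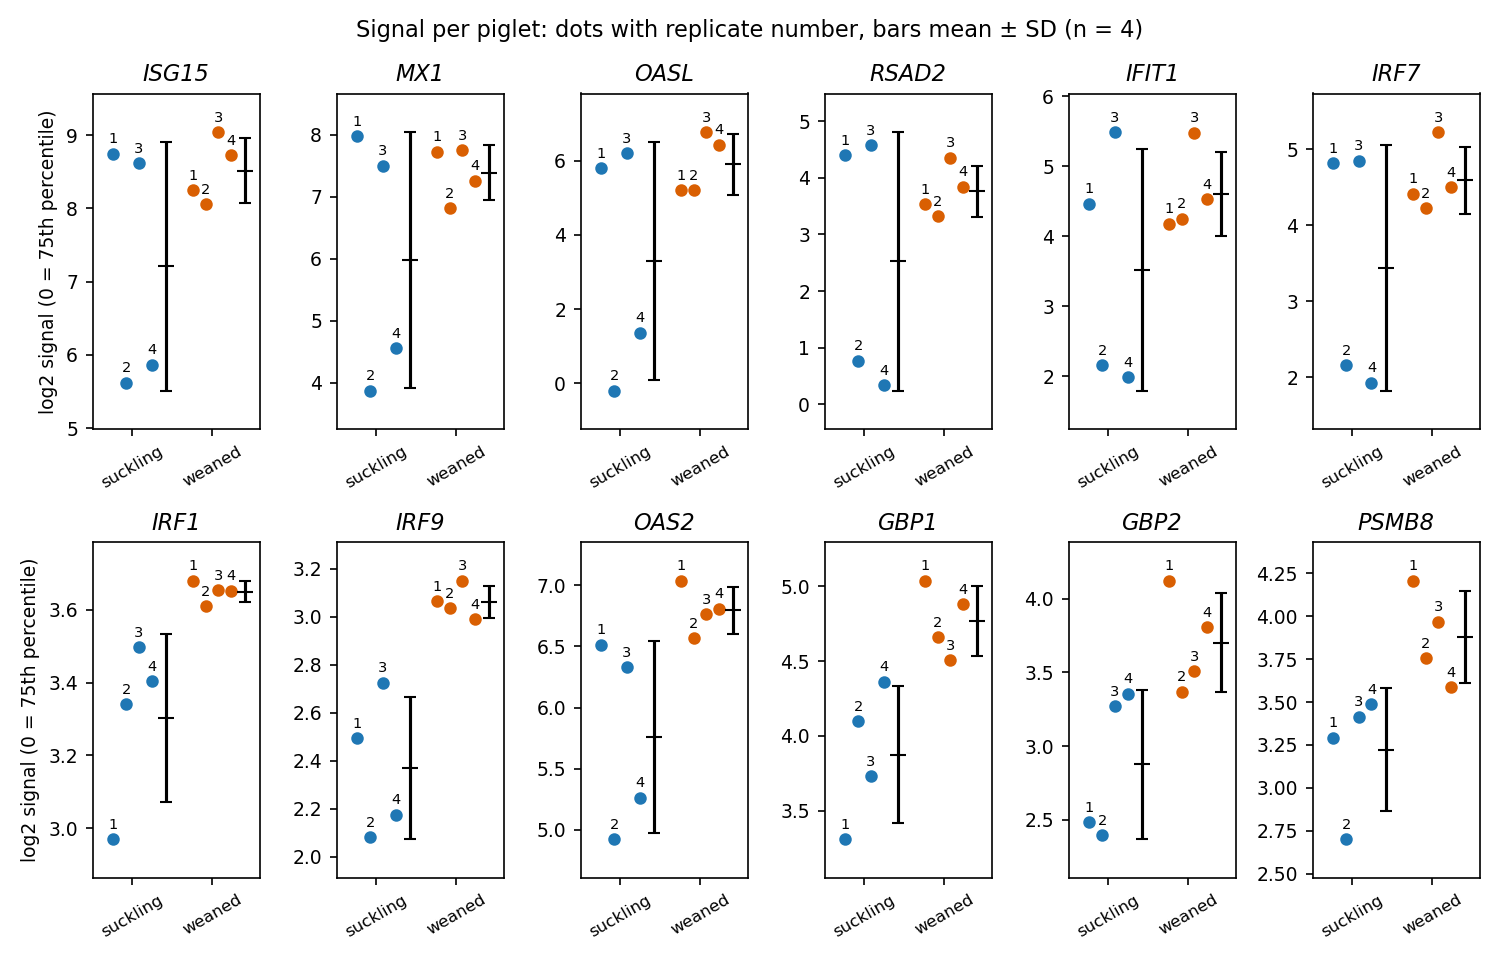
Dots give the log2 signal of each piglet, numbered by replicate, and bars the mean ± SD of the 4 piglets of a group; each panel has its own vertical scale. In the upper row (ISG15, MX1, OASL, RSAD2, IFIT1, IRF7) suckling piglets 2 and 4 lie apart from the other 6 piglets, and in the lower row (the 6 genes whose groups do not overlap) every weaned piglet lies above every suckling piglet.

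The immunoproteasome replaces the standard catalytic subunits of the proteasome and shapes the peptides shown on class I molecules, and TAP1 with TAP2 carries those peptides into the endoplasmic reticulum. PSMB8 (NM_213935), a catalytic subunit, measured 3.29, 2.70, 3.41 and 3.49 in suckling and 4.21, 3.76, 3.97 and 3.59 in weaned piglets. The groups did not overlap, by a small margin between suckling replicate 4 and weaned replicate 4, and the difference was 0.66 (SE 0.22, limma adjusted p = 0.295), with all 3 probes higher in weaned piglets. TAP1 measured 1.26, 0.72, 1.54 and 1.89 in suckling and 1.73, 1.81, 1.94 and 1.57 in weaned piglets. Suckling replicate 4, among the lowest for the effectors, was second highest of all 8 arrays for TAP1, and the groups overlapped. PSMB9, another catalytic subunit, had means of 6.34 ± 0.24 and 6.71 ± 0.21, and TAP2 of 0.64 ± 0.20 and 0.92 ± 0.060 (SD, n = 4 per group). The differences of PSMB9, TAP1 and TAP2 were 0.37, 0.41 and 0.28, all smaller than 1.5-fold (limma adjusted p = 0.44, 0.531 and 0.489). Without suckling replicate 4, PSMB9, TAP1 and TAP2 also had groups that did not overlap.

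UBD, or FAT10, a ubiquitin-like modifier that sends proteins to the proteasome and responds to interferon gamma and tumour necrosis factor, had a lower mean in weaned piglets, as did STAT2 alone among the others. It measured 0.77, 5.84, 5.38 and 6.31 in suckling and 4.48, 2.99, 5.11 and 2.98 in weaned piglets. Suckling replicate 1 was more than 4 log2 units below the rest of its group, and suckling replicates 2, 3 and 4 were each above all 4 weaned piglets. The difference was -0.68 (SE 1.14, 95% interval -3.26 to 1.90, limma adjusted p = 0.843), and it was -1.95 without suckling replicate 1 and -0.11 without suckling replicate 4. Suckling replicate 1 was also low in the sum of the epithelial markers. In units of the 75th percentile it was 758 there and between 1147 and 1707 in the other suckling piglets. FABP1, FABP2, ANPEP, EPCAM and CDH1 were lowest of the suckling group in replicate 1. KRT8 was highest there, at 8.26 against 7.75 to 7.88. The part of this in the UBD value was not tested. UBD had 1 probe.

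The 3 chemokines, which draw T cells and NK cells through the receptor CXCR3, differed from most of the effectors in which weaned piglet was highest. CXCL10 measured 3.94, 2.13, 4.93 and 2.26 in suckling and 5.48, 4.93, 4.10 and 3.92 in weaned piglets. CXCL11 measured -3.41, -4.94, -1.34 and -4.77 in suckling and -0.20, -1.26, -2.98 and -3.40 in weaned piglets, and CXCL9 measured 0.41, -0.37, 1.66 and -0.27 in suckling and 2.45, 1.52, -0.32 and -0.20 in weaned piglets. Among the weaned piglets replicate 1 was the highest for all 3 chemokines and replicate 2 came next. Replicate 3 was the highest weaned piglet for ISG15, IFIT1, IFIT3, OASL, MX1, MX2, RSAD2, IFI44 and IRF7. For USP18, BST2 and EIF2AK2 it was replicate 4, and for OAS2 it was replicate 1, as for the chemokines. In the suckling group replicate 3 was the highest for all 3 chemokines, and replicates 2 and 4 were the lowest. The differences were 1.29 for CXCL10, 1.65 for CXCL11 and 0.50 for CXCL9 (SE 0.64, 0.92 and 0.68; limma adjusted p = 0.455, 0.506 and 0.802). Without weaned replicate 1 the CXCL9 difference was -0.027. Under normexp background correction the differences were 1.47 for CXCL10, 0.057 for CXCL11 and 0.30 for CXCL9. That of CXCL11, a dim probe, thus depended on the background correction. The weaned values spanned 6.83-fold for CXCL9 and 9.16-fold for CXCL11, wider than for any effector gene above.

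**Figure D3:**
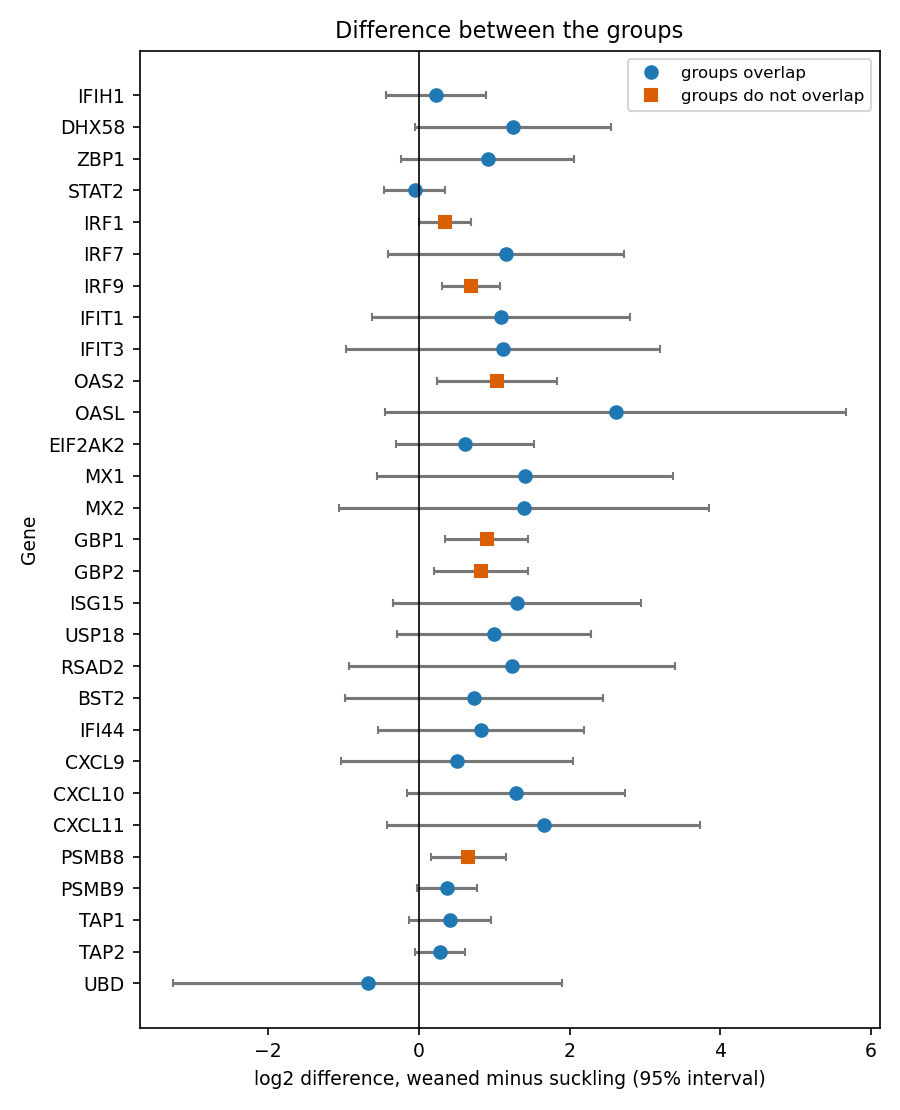
Points give the log2 difference, weaned minus suckling, of each of the 29 genes, and lines its 95% interval from limma (n = 4 per group). Squares mark the 6 genes whose groups do not overlap, at differences of 0.35 to 1.04, and the intervals of the antiviral effectors with the largest differences, such as OASL, MX1 and MX2, include 0.

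The spread within each group was set against that of all tested probes. The SD over the suckling piglets was larger than that over the weaned piglets in 28 of the 29 genes, CXCL9 being the exception, and in 68.1% of all tested probes. The median SD was 1.32 in suckling and 0.38 in weaned piglets for the 29 genes, and 0.33 and 0.25 over all tested probes. A suckling range of at least 2 log2 units was found in 17 genes, against 6.91% of all tested probes, and a weaned range of that size in CXCL9, CXCL11 and UBD, against 2.83%. Leaving out any 1 piglet left 26 to 28 genes with the larger SD in the suckling group. No run left out more than 1 piglet.

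The wide suckling spread had a common order. In 19 of the 29 genes the 2 lowest of the 8 arrays were suckling replicates 2 and 4, a pattern noticed in these data and found in 8.77% of all tested probes. These were IFIH1, DHX58, ZBP1, IRF7, IRF9, IFIT1, IFIT3, OAS2, OASL, EIF2AK2, MX1, MX2, ISG15, USP18, RSAD2, BST2, IFI44, CXCL10 and CXCL11. In 16 of the 19 the third lowest array was at least 1 log2 unit above the second lowest, and the largest such step was 3.84, in OASL. STAT2, IRF1, GBP1, GBP2, CXCL9, PSMB8, PSMB9, TAP1, TAP2 and UBD had another order. The other probes of these genes, which had not been chosen to stand for a gene, numbered 28 for 17 genes: 28 of 28 were higher in weaned piglets, none passed the threshold, and in 19 of 28 the 2 lowest arrays were again suckling replicates 2 and 4. Probes of 1 gene measure the same RNA and are not separate evidence on the piglets.

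The brightness of the arrays is given beside this order; its part in the order was not tested. Suckling replicates 1 and 3, high in effector genes, had 75th percentiles of 245 and 395, the lowest and the highest of the suckling group, and suckling replicates 2 and 4 had 392 and 341. The medians over all tested probes of the deviation from the mean of each probe were 0.018, -0.013, -0.042 and -0.017 in the suckling piglets. Over the 29 genes the same medians were 0.24, -1.66, 0.72 and -1.22 in suckling and 0.38, 0.22, 0.44 and 0.28 in weaned piglets. By role they were 0.78, -2.28, 1.39 and -2.09 in suckling piglets for the IFIT proteins, 0.81, -2.13, 0.63 and -1.61 for ISG15 and USP18, and -0.26, -0.54, -0.12 and 0.14 for the immunoproteasome, the peptide transporters and UBD.

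**Figure D4:**
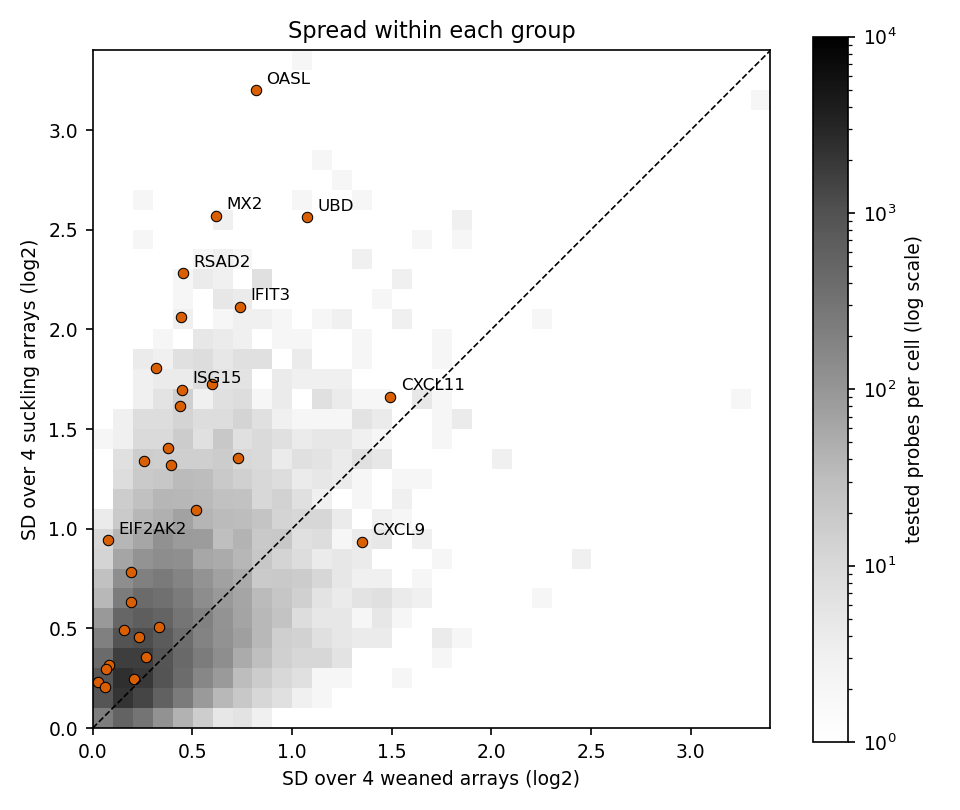
The SD of the log2 signal over the 4 suckling piglets (vertical) is plotted against that over the 4 weaned piglets (horizontal); orange points are the 29 genes, grey cells count all tested probes on a log scale, and the dashed line marks equal SDs, with axes that end at 3.4 and leave out 25 probes. Of the 29 points 28 lie above the line, OASL is the highest at 3.20, and CXCL9 lies below.

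Several of these genes are close neighbours in the pig gene order of the Sscrofa11.1 annotation, which was used for names and order alone. IFIT1 and IFIT3, GBP1 and GBP2, and CXCL10 and CXCL11 had no annotated gene between them, MX1 and MX2 had 1, and PSMB8 lay directly beside both TAP1 and TAP2, with PSMB9 next to TAP1. IFIT1 with IFIT3, MX1 with MX2 and GBP1 with GBP2 are also similar in sequence, so the split of signal within these pairs is uncertain.

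Among the interferon genes with a probe, IFNB1 and IFNA1, both type I, were rarely above background. Their probes were well above background on 1 of 8 arrays, weaned replicate 2, and were not tested. IFNE, an epithelial type I interferon, was well above background on all arrays and differed by 0.096 (limma adjusted p = 0.857). IFNG, interferon gamma, was also well above background on all arrays, at -3.19, -4.14, -3.88 and -3.36 in suckling and -3.57, -3.23, -4.17 and -2.65 in weaned piglets, with overlapping groups and a difference of 0.24 (95% interval -0.53 to 1.00, limma adjusted p = 0.812). The 4 interferon genes in these sentences were named after their values were seen.

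Of 13 tested genes of interferon receptors and signalling (23 listed), none passed the threshold, 8 had a higher mean in weaned piglets, and the median difference was 0.096. Over all tested probes 54.9% had a higher mean in weaned piglets, and the median difference was 0.04. The count of 8 of 13 is near that share. The same share stands beside the counts of the next 3 lists and of the cell markers below. SOCS3, a feedback inhibitor of cytokine signalling, had -4.25 ± 0.56 in suckling and -3.34 ± 0.59 in weaned piglets, and IFNAR1, a chain of the type I receptor, -0.38 ± 0.14 and -0.070 ± 0.18 (SD, n = 4 per group; limma adjusted p = 0.354 and 0.448).

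Of 11 tested genes that lead to interferon production (19 listed), none passed, 8 were higher, and the median was 0.22. TBK1, the kinase that activates IRF3, and TLR3, an endosomal RNA receptor, had differences of -0.31 and -0.34, and TLR4, the receptor of lipopolysaccharide, 0.39 (limma adjusted p = 0.449, 0.553 and 0.505). Suckling replicates 2 and 4 were the 2 lowest arrays in 0 of these 11 genes, against 8.77% of all tested probes.

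Of 38 further interferon-stimulated genes 8 were tested; none passed, all 8 had a higher mean in weaned piglets, and the median was 0.45. CD274, which encodes the checkpoint ligand PD-L1, measured -2.59, -4.27, -2.72 and -3.88 in suckling and -0.98, -1.46, -2.70 and -1.38 in weaned piglets, a difference of 1.74 (SE 0.47, limma adjusted p = 0.218). Its groups overlapped through weaned replicate 3. IFI30, a lysosomal thiol reductase of antigen processing that interferon gamma induces, measured 2.69, 3.01, 3.54 and 3.21 in suckling and 4.21, 3.76, 3.80 and 3.75 in weaned piglets, with groups that did not overlap (difference 0.77, limma adjusted p = 0.218). CASP1, the inflammasome protease, differed by 0.78 (limma adjusted p = 0.315). In 5 of the 8 genes suckling replicates 2 and 4 were the 2 lowest arrays, against 8.77% of all tested probes.

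Of 15 tested genes of the proteasome and class I presentation (29 listed), none passed, 13 had a higher mean in weaned piglets, and the median was 0.30. The subunits PSMB4 and PSMB3 belong to every proteasome and not to the immunoproteasome alone. PSMB4 measured 4.82, 4.73, 5.04 and 4.83 in suckling and 5.60, 5.31, 5.32 and 5.34 in weaned piglets, and PSMB3 measured -1.13, -1.83, -2.04 and -1.62 in suckling and -0.098, -0.88, -1.05 and -0.82 in weaned piglets. Both had groups that did not overlap, with differences of 0.54 and 0.94, and PSMA5 differed by 0.50 (limma adjusted p = 0.216, 0.231 and 0.407). In 4 of the 15 genes suckling replicates 2 and 4 were the 2 lowest arrays, against 8.77% of all tested probes. PSMB10, the third subunit particular to the immunoproteasome, had 6.19 ± 0.34 in suckling and 6.28 ± 0.13 in weaned piglets (SD, n = 4 per group; chosen after its values were seen).

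None of the single immune cell markers tested passed the limma threshold. Of 13 markers of T and NK cells 11 had a probe, 9 of them with a higher mean in weaned piglets, and their summed level, in units of the 75th percentile, was 21.7 to 42.2 in suckling and 48.7 to 58.7 in weaned piglets. Of 11 markers of macrophages and dendritic cells 7 had a probe, and their summed level was 32.8 to 41.9 in suckling and 42.2 to 56.7 in weaned piglets. Granzyme B, GZMB, made up 56.9% to 81.1% of the T and NK sum in suckling and 75.1% to 81.5% in weaned piglets, and without it the sums were 7.99 to 10.0 and 9.65 to 12.9 and overlapped. The chains CD3D, CD3E and CD3G of the T cell receptor complex differed by -0.072, 0.18 and -0.31. The macrophage sums did not overlap, by a small margin. The part of these cells in IRF1, IRF9, OAS2, GBP1, GBP2 and PSMB8, whose groups did not overlap, was not tested. SIGLEC1, a macrophage gene that interferon also induces, was well above background on 3 of 8 arrays. Of 5 neutrophil markers 3 had a probe, and S100A9 was well above background on 4 of 8 arrays. B and plasma cell markers had 3 of 7 probes, with summed levels of 0.22 to 0.46 in suckling and 0.30 to 0.53 in weaned piglets.

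Suckling replicates 2 and 4 were the 2 lowest arrays for 2 of 6 tested macrophage and dendritic markers, CD14 and CD163, for 1 of 11 T and NK markers, NKG7, and for 1 of 3 B cell markers, CD79A. The share of all tested probes with this order was 8.77%, and the T and NK count is near it. CD14, a lipopolysaccharide co-receptor, measured -0.44, -0.93, -0.67 and -1.17 in suckling and 0.77, 0.16, -0.63 and -0.37 in weaned piglets. CD163, the haemoglobin scavenger receptor, measured 3.96, 1.41, 3.03 and 1.47 in suckling and 3.61, 3.32, 2.26 and 3.23 in weaned piglets, and all 4 were singled out after their values were seen. The part of these cells in the effector values was not tested. The macrophage markers AIF1 and TYROBP had 3.41, 3.92, 3.88 and 3.92 and 2.58, 3.01, 3.12 and 3.25 in the suckling piglets, where replicate 1 was the lowest and replicates 2 and 4 were not.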

How the data were processed

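Jejunal RNA of 4 suckling and 4 weaned piglets was measured, 1 piglet per array. Agilent Feature Extraction 10.7 turned the scans into spot values, per the submitters' processing notes. Each deposited scanner file lists a background-subtracted processed intensity, a median spot intensity and a local background intensity per spot; a mean spot intensity was not used here. The authors also deposited 1 table for all arrays, with log2 values whose order matches the processed intensity of each array (medians 5.50 in all 8 columns); its normalisation is not given in the sources used here.

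Control spots were left out, outlier spots (4 to 24 per array) set to missing, spots of a probe averaged on the log2 scale and the 75th percentile of the array subtracted. No spot was saturated. Of 43603 probes, 6924 got a symbol through RefSeq accessions matched without versions to the Sscrofa11.1 gene table. A probe was tested when well above background on at least 4 arrays with at least 3 values per group. Groups were compared with limma 3.58.1 (R 4.3.3), which was tested on simulated data. Array number limits the precision.

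The genes and lists were chosen with earlier results of these data known. By rule, up to 3 genes per role list with the largest absolute difference (4 among other effectors) were given by array, and up to 3 per related list with the smallest p were named; 1 gene that this rule names is not reported here. Alternatives tried were normexp (offset 50, median spot intensity), quantile normalisation, scaling to the array median, other filters on dim probes, outlier spots kept, trend with robust prior, array weights, replicate block, the deposited table, the mean over probes, a fold of at least 2 and each array left out. No sequences are shown, since none were used here.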

Additional observations from a re-analysis of the deposited data

Results flagged for a closer look

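In groups of 4 piglets, the gap between the highest or lowest piglet and its nearest neighbour was divided by the range of the group, and values above 0.829 are listed. Of 78 groups of values of the 29 genes and their role lists, 4 were above it; chance alone gives about 1 in 20, and the groups share piglets. UBD was far lower in suckling replicate 1 than in the other suckling piglets (0.832). BST2 was highest in weaned replicate 4 (0.853). IFI44 (0.881) and the list of IFIT proteins (0.912) were highest in weaned replicate 3.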

How the results depend on the processing

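None of the 29 genes passed the limma threshold under any of 20 alternatives; the smallest adjusted p was 0.0739, for OAS2 without suckling replicate 1. The number of genes with a higher mean in weaned piglets (26 to 28 when 1 array was left out), the number with the larger suckling SD (26 to 28) and the median difference (0.50 to 1.23) kept their direction under all alternatives computed for them. No alternative left out both suckling replicates 2 and 4, the 2 lowest arrays in 19 of the 29 genes. The genes were measured in the same piglets and are not separate evidence on them. Groups did not overlap in 6 to 9 genes when 1 array was left out, and in 2 under normexp background correction, where the median over all tested probes was -0.11; the cause was not tested. The number of all tested probes past the threshold, 54 in the main comparison, was 328 with array weights, 0 under normexp and 0 with the replicate block, and 9 to 553 when 1 array was left out. At an unadjusted limma p under 0.05, the 29 genes held 6 in the main comparison, 3 under normexp, 8 with array weights and 7 with the replicate block, where 12.3%, 0.995%, 21.8% and 13.7% of all tested probes passed. The split of all calls was 53 higher and 1 lower in the main comparison, 264 and 64 with array weights, and 374 and 179 without suckling replicate 1.

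The replicate numbers are not tied to litters by the labels. Across probes, same-numbered piglets had correlations of their deviations of 0.37, 0.0077, 0.19 and -0.018 for numbers 1 to 4, so the numbers were not taken to pair the piglets. The replicate number is also the array position on each slide, so these correlations cannot tell litter from position. The main comparison held no term for litter. Of 580 values of single genes under alternatives, 4 changed sign: CXCL9 without weaned replicate 1 (-0.027), and STAT2 with the mean over probes (0.36), under normexp (0.21) and without suckling replicate 3 (0.093). With 1 array left out the CXCL9 difference ran from -0.027 to 0.94 and that of STAT2 from -0.15 to 0.093. Signal over background limits the interferon genes IFNB1 and IFNA1, and 4 piglets per group limit all differences.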

Other observations

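Beside the 29 genes, a few others named on the array had their 2 lowest values in suckling replicates 2 and 4 with a step of at least 1 log2 unit to the third lowest array. Among 2813 tested genes with a symbol, 23 did, 16 of them members of the list; the other 7 were chosen after their values were seen and carry no test. FCGR1A, a high-affinity Fc receptor of macrophages that interferon gamma induces, measured -3.58, -5.31, -3.24 and -6.11 in suckling and -2.16, -3.47, -3.50 and -3.72 in weaned piglets. Its value in suckling replicate 4 lay near that of IFNA1 on the same array, -6.15, which was not well above background. The size of its step is therefore uncertain. CD5L, a protein secreted by tissue macrophages, measured 2.88, -2.23, -0.74 and -2.17 in suckling and 0.063, 0.38, 0.033 and 1.25 in weaned piglets, with suckling replicate 1 the highest of all arrays. PARP12, an interferon-induced ADP-ribosyltransferase, measured 5.22, 3.90, 5.41 and 3.84 in suckling and 4.92, 4.91, 5.50 and 5.31 in weaned piglets.

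Of the remaining ones, LPL, lipoprotein lipase, measured 0.29, -2.38, -0.70 and -1.82 in suckling and 1.28, 0.52, -0.39 and 0.93 in weaned piglets. GPX2, a glutathione peroxidase of the gut epithelium, measured -0.50, -1.79, -0.30 and -2.41 in suckling and 2.00, 0.81, -0.57 and 1.48 in weaned piglets. CD274 was described above, and the last was a gene named by a LOC number alone. Over all 30554 tested probes 97 had such a step, 54 of them without a symbol here.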
